A study of Mus musculus with 6 samples.

Results

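Connexins are the subunits of gap junctions, the channels that join the cytoplasm of neighbouring cells. The 7 connexin genes described here are Gja1, Gja4, Gja5, Gjb2, Gjb5, Gjb6 and Gjc1, of 20676 named genes with a probe on the array. They were found through the RefSeq transcript that the array files give for each probe, which led to 8 probes, 2 of them for Gja5. Expression was measured in cultured fibroblasts from heart and tail of male C57/Bl6-J mice, with 3 arrays per tissue. The animals were 8 weeks old by the sample labels and 8 to 10 weeks old by the protocol, and no genetic change or drug treatment is recorded for either group. Chopped hearts and skinned, cut tails were digested with trypsin/EDTA or collagenase type II, and the cells that were plated grew for 5 days before RNA was taken. The design text calls the samples biological replicates, each pooled from 2 animals. The cells were not sorted in the recorded protocol, so a culture could hold other cell types of each tissue. The study's title concerns cardiogenic genes in cardiac fibroblasts, and the comparison of heart with tail asks which genes differ between fibroblasts of the 2 origins.

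A connexin channel forms when a ring of connexin subunits in one membrane docks with a ring in the next, which lets ions and small metabolites pass between the cells. Different cell types use different connexins: Gja1 (Cx43) is the most widely expressed and couples working cardiomyocytes and many fibroblasts, Gja4 (Cx37) and Gja5 (Cx40) are connexins of arterial endothelium, Gja5 also serves the atria and the conduction system, and Gjc1 (Cx45) is found in the conduction system and in vascular smooth muscle. Gjb2 (Cx26), Gjb5 (Cx31.1) and Gjb6 (Cx30) belong to the beta group, which is best known from epidermis, cochlea and other epithelia.

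The array labelled heart 2 and the array labelled tail 1 stood apart. On heart 2, 99.3% of the spots were well above background by the scanner's flag, against 47.3% to 55.2% on the other 5 arrays, and the scanner marked 2748 spots there as non-uniform, where it marked 0 to 7 on each of the others. Pearson's r of log2 signals across probes was 0.742 to 0.764 between heart 2 and every other array, and 0.957 to 0.989 within the remaining 5. Tail 1 correlated with heart 1 at 0.989 and with heart 3 at 0.979, above its 0.969 with tail 2 and 0.957 with tail 3, so its profile went against its label. Each difference is therefore given for the 6 arrays by label and for 4 arrays (heart 1 and 3 against tail 2 and 3). Tail 1 was left out because of its measured expression, so the p-values of the 4-array fit are too small by an unknown amount. With 6 arrays, limma called 0 of 20197 features (0%) at an adjusted p under 0.05, 464 had an unadjusted p under 0.05, and the smallest adjusted p was 0.188. With 4 arrays it called 2933 of 20567 (14.3%), of which 1591 (7.74%) were higher and 1342 (6.53%) lower in heart.

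On the 4 arrays Gja4 was called higher and Gja1 lower in heart, and by label over all arrays neither was called. Gjb2 had signal on the tail arrays alone among the 4, so it is given by a bound and its call is not counted with theirs. The promoter windows of Gja1, Gja4 and Gjb2 are shown first, to place each gene and its start. Each is the 250 bases before the RefSeq start in build GRCm38.p6, written 5′ to 3′ on the gene's own strand. Gja1 lies on chr10:56377050-56377299 (plus strand), Gja4 on chr4:127314040-127314289 (minus strand) and Gjb2 on chr14:57104703-57104952 (minus strand), where the window also overlaps the long non-coding RNA gene Gm32912. Capitals mark the letters of the motifs that were searched.
Gja1: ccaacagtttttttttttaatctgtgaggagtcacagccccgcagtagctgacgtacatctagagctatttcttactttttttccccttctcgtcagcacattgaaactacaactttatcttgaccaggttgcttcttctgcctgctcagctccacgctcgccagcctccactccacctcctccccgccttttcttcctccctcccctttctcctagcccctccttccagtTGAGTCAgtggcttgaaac
Gja4: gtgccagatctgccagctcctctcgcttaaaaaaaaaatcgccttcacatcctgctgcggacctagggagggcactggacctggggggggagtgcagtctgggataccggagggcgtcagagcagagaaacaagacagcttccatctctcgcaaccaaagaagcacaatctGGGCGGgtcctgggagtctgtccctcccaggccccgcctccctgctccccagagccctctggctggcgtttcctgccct
Gjb2: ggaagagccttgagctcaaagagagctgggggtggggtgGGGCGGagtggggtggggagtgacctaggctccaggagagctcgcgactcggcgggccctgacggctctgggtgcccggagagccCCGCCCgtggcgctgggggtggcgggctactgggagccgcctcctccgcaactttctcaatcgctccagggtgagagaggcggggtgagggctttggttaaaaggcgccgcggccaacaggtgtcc

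The motifs were searched on both strands. They were the GC box, with the letters GGGCGG or on the opposite strand CCGCCC, and the AP-1 site, with TGAGTCA or on the opposite strand TGACTCA. The other motifs were the TATA box, with TATAAA or on the opposite strand TTTATA, and the T-box site, with AGGTGTGA or on the opposite strand TCACACCT. The AP-1 letters occurred once in the Gja1 window, 19 bases before the start, and in 4.46% of 32851 promoters of the same length. The GC box letters occurred once in the Gja4 window, 79 bases before the start, 2 times in the Gjb2 window, 211 and 126 bases before it, and in 32.7% of all promoters. RefSeq windows were found for 6 of the 7 genes, all but Gjc1. Of the other windows, Gja5 held the GC box letters 17 bases before the start and Gjb5 held the TATA box letters 243 bases before it, which 12.4% of all promoters hold. None of the 6 windows held the T-box letters, which 1.12% of promoters hold. The GC share was 50% for Gja1, 61.2% for Gja4 and 69.2% for Gjb2, beside a median of 52.4% over all promoters. These matches describe the letters of the windows and were not tied to the array values.

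Of the 7 connexin genes, 3 (Gja1, Gja4 and Gjc1) had signal well above background on every array and entered the 6-array fit, and Gjb2 joined them in the 4-array fit. The tested genes passed a filter that asks for signal on every array of at least 1 group, so their count is not a count over all 7. With 6 arrays, 0 of 3 were called, at an adjusted p of 0.726 or above, and 0 had an unadjusted p under 0.05. On the 4 arrays, Gja4 was called higher and Gja1 lower in heart among the 3 genes with signal throughout. Gjb2 passed the filter through the tail arrays alone, where it was high, so it is given by a bound and its call is not counted with theirs. Without the filter on dim probes, 0 of the 7 were called. By label the median log2 difference of the 3, heart minus tail, was -0.46, beside -0.35 over all features tested. All features had a median of -0.06 on the 4 arrays. All values below are log2 signals relative to the 75th percentile of the same array, and a level is never set against the level of another probe.

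**Figure D1:**
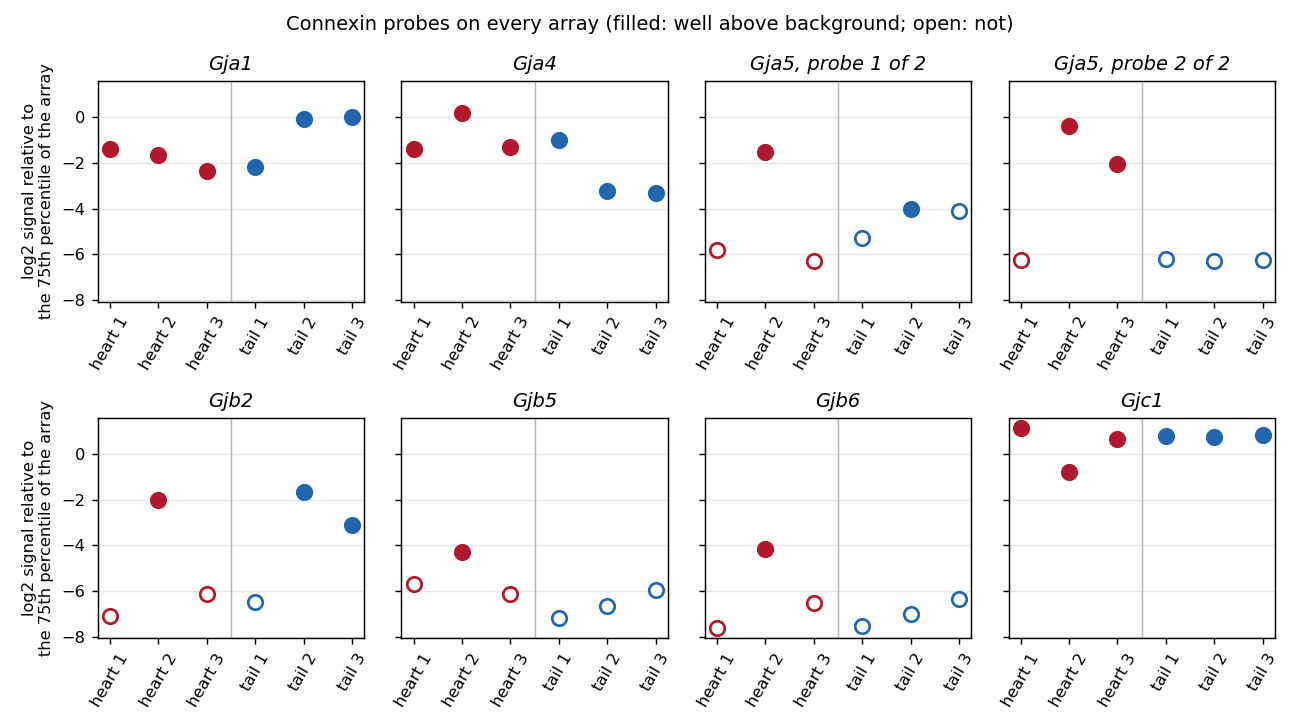
Each panel shows 1 connexin probe, with the log2 signal relative to the 75th percentile of the array on the vertical axis and the 6 arrays on the horizontal axis (red, heart; blue, tail). Filled points were well above background and open points were not. Tail 1 lies beside heart 1 and heart 3 for Gja1 (-2.18) and Gja4 (-0.98), and heart 2 is the only filled point for Gjb5 and Gjb6.

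Gja1, the connexin that couples most fibroblasts and cardiomyocytes, was read by 10 spots of the same probe on each array. Its log2 signal was -1.39 on heart 1, -1.64 on heart 2 and -2.36 on heart 3. On the tail arrays it was -2.18, -0.09 and -0.01. Tail 2 and tail 3 stood above all 3 heart arrays, while tail 1 lay among the heart arrays, so the labelled groups overlapped. The 10 spots of an array had an SD of 0.037 to 0.13, which is technical spread only. By label the difference was -1.04 ± 0.65 (SE, 3 against 3 arrays; 95% interval -2.55 to 0.47; adjusted p 0.726 in limma). That difference was -2.02 with median scaling, -1.89 with quantile normalization and -1.75 without tail 1, called in none of them. With median scaling the median over all features moved too, from -0.35 to -1.33. On the 4 arrays Gja1 was 3.55-fold lower in heart, a log2 difference of -1.83 ± 0.35 (SE, 2 against 2; 95% interval -2.76 to -0.90; adjusted p 0.0372). Within the first row of the slide heart 1 minus tail 2 was -1.30, and within the second row heart 3 minus tail 3 was -2.35. The 4-array call was lost without tail 2 (adjusted p 0.128), without tail 3 (0.130), with quantile normalization (0.0540), without the filter on dim probes (0.190) and when a change beyond 2-fold was tested (0.410). Array weights in the 6-array fit, which give heart 2 a weight of 0.0333 and tail 1 a weight of 0.469, put the difference at -1.76. Its adjusted p was then 0.0419, with 10.6% of features called. The weights come from how far each array departs from its labelled group in these same values. This p-value therefore shares the limit of the 4-array fit.

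Gja4, the connexin of arterial endothelial cells, gave the opposite pattern. Its log2 signal was -1.40, 0.21 and -1.28 on heart 1 to 3, and -0.98, -3.24 and -3.33 on tail 1 to 3. Tail 2 and tail 3 lay below the other 4 arrays and tail 1 lay between heart 2 and the other heart arrays. By label the difference was 1.69 ± 0.75 (SE, 3 against 3; 95% interval -0.05 to 3.43; adjusted p 0.726). It was 0.71 with median scaling, which shifted all features, 1.05 with normexp background correction and 2.46 without tail 1, again with no call. Without heart 2 and tail 1, Gja4 was 3.84-fold higher in heart, a log2 difference of 1.94 ± 0.15 (SE, 2 against 2; 95% interval 1.55 to 2.34; adjusted p 0.00317). The row differences were 1.84 and 2.05. Leaving out any 1 of the 4 arrays kept the call, at adjusted p 0.010 to 0.0334, and so did a test for a change beyond 2-fold (0.0251). The call was lost without the filter on dim probes (adjusted p 0.0505), and normexp background correction reduced the difference to 1.20. With array weights over 6 arrays the difference was 1.88 (adjusted p 0.0338), with the limit given for Gja1.

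Gjb2, a connexin of epidermis and cochlea, was well above background on 3 arrays: heart 2 at -2.02, tail 2 at -1.65 and tail 3 at -3.09. Heart 1, heart 3 and tail 1, at -7.11, -6.12 and -6.48, were not well above background. No labelled group had signal on all of its arrays, so Gjb2 was not tested over 6 arrays. On the 4 arrays both tail arrays had signal and neither heart array did, and Gjb2 was at least 5.11-fold higher in tail. This bound sets the tail mean against the lowest signals that the heart arrays could call, and the tail arrays were unlike each other. It was 3.11-fold without tail 2 and 8.41-fold without tail 3. The bound also rests on the background subtraction used. With normexp background correction and quantile normalization the fitted log2 difference shrank from -4.24 to -1.23. The fit, which takes the dim heart values at face value, had an adjusted p of 0.0156, which adds nothing to the bound. That call was lost without heart 1 (adjusted p 0.0583), without heart 3 (0.0512) and without the filter (0.102). Tail 1 and heart 2 each went against their labels' other arrays for this gene. On heart 2 99.3% of the spots were well above background. Gjd2 (0.32) and Gje1 (-1.82), with signal on no other array, read higher there than Gjb2, so the heart 2 value says little about Gjb2.

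Gjc1, the connexin of conduction tissue and vascular smooth muscle, had signal on all arrays. It stood at 1.15, -0.78 and 0.66 on the heart arrays and at 0.80, 0.76 and 0.85 on the tail arrays. Heart 2 was lowest, and the other 5 arrays spanned a narrow range in which the tissues overlapped. By label the difference was -0.46 ± 0.55 (SE, adjusted p 0.729), and -1.44 with median scaling, which shifted all features. On the 4 arrays it was 0.10 ± 0.22 (SE, 95% interval -0.47 to 0.68, adjusted p 0.789), and its sign changed without heart 1. The test did not separate the tissues, and the interval leaves room for a modest difference either way.

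The arterial and atrial connexin Gja5 was read by 2 probes that disagreed. The first read -5.81, -1.52 and -6.28 on the heart arrays and -5.30, -4.03 and -4.12 on the tail arrays, with signal well above background on heart 2 and tail 2. The second read -6.22, -0.39 and -2.03 on the heart arrays and -6.21, -6.28 and -6.23 on the tail arrays, with signal on heart 2 and heart 3. Neither probe passed the filter in either fit, so Gja5 was not tested. The second probe passed the filter once heart 1 was left out, and then read higher in heart; the first passed once tail 3 was left out, and then read lower in heart. In both cases the gene entered through the arrays where it was high, so no test is given for Gja5. Its direction depended on the probe and on 1 array. The epithelial connexins Gjb5 and Gjb6 were well above background on heart 2 alone, at -4.30 and -4.15. On the other 5 arrays they read -7.15 to -5.68 and -7.62 to -6.35, none well above background, so no level beyond an upper bound was measured there.

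Of 9 other connexin genes considered here, 2 were tested on the 4 arrays and 0 were called, with a median difference of 0.002. The Schwann cell and liver connexin Gjb1 differed by -0.13 (adjusted p 0.694) and Gja10 of the retina by 0.13 (0.669). Gja6, Gjc3, Gjd2, Gjd3, Gjd4 and Gje1 were well above background on none of the 5 arrays other than heart 2. The related channel gene Panx1, a pannexin, had signal on all arrays and differed by 0.43 (adjusted p 0.208).

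In the RefSeq gene order Gja3, Gjb2 and Gjb6 adjoin on chromosome 14 with 0 coding genes between them, and of these Gjb2 alone was tested.

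For each connexin tested over 6 arrays, the 3 genes with the most similar profile were sought among 13416 named genes, as the smallest root mean square difference of centred log2 values over the 5 arrays other than heart 2. For Gja1 these were the oxysterol-binding protein gene Osbpl3 (0.084), the transcriptional coregulator gene Cited2 (0.086) and the TEAD transcription factor gene Tead4 (0.103). For Gja4 they were the RNA-editing enzyme gene Adarb1 (0.045), the basement membrane collagen gene Col4a5 (0.072) and the cytokine signalling inhibitor gene Socs3 (0.085). For Gjc1, whose values hardly moved over these arrays, they were Tsen15 (0.012), Klhdc2 (0.021) and Nipbl (0.025). The likeness is a description over 5 points.

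**Figure D2:**
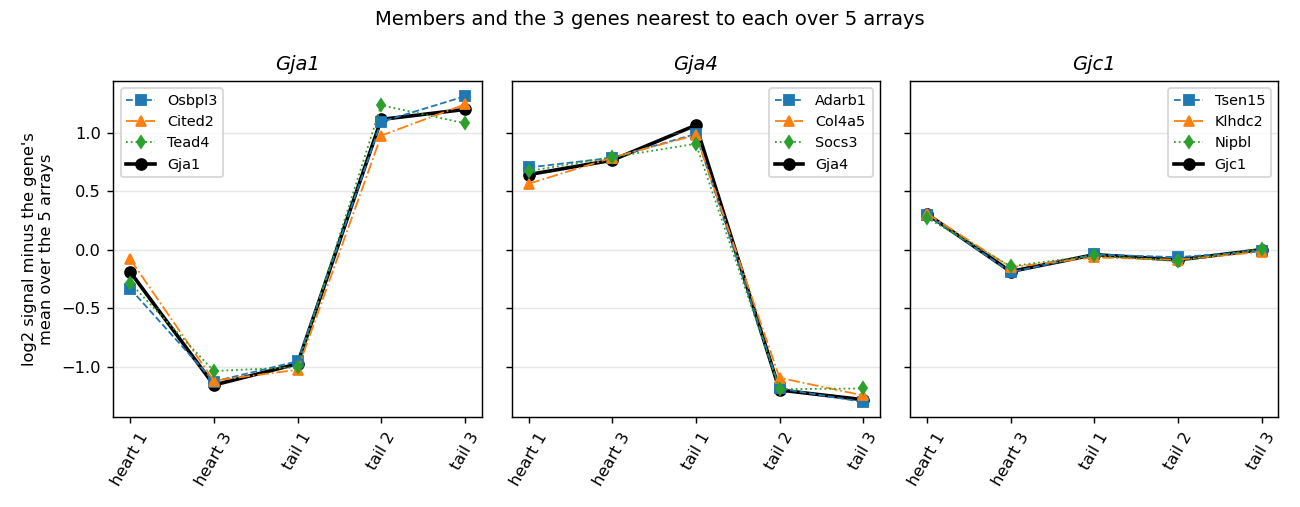
Centred log2 signal on the vertical axis for Gja1, Gja4 and Gjc1 (black) and the 3 nearest genes of each (coloured, dashed or dotted) over 5 arrays on the horizontal axis. In the Gja1 and Gja4 panels tail 1 sits with heart 1 and heart 3, and the nearest genes lie at a root mean square of 0.045 to 0.103 from them.

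Connexins work with scaffold, adhesion and turnover proteins, and 29 such genes were listed, of which 28 were tested on the 4 arrays. Of these, 3 were higher in heart, 7 lower and 18 not called, with a median difference of -0.18. Over all features tested, 7.74% were higher and 6.53% lower in heart. The list was chosen with earlier results known, and Dsp, Jup and Ank3 passed the filter only through the group where they were high. By label, 0 of 28 were called and 3 had an unadjusted p under 0.05. The gene with the greatest difference was Cav1, which encodes the caveolar coat protein caveolin. Cav1 read -1.61, 0.67 and -2.55 on the heart arrays and -2.38, 2.14 and 2.02 on the tail arrays, with tail 1 among the heart arrays, and was 17.9-fold lower in heart on the 4 arrays (-4.16 ± 0.34, SE; adjusted p 0.00386). Its partner caveolin gene Cav2 was lower too (-1.47; adjusted p 0.0321).

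The desmosome is the junction that anchors intermediate filaments. Its genes Pkp2 and Dsp were lower in heart, while Jup, which also serves it, was higher. Pkp2, which encodes the desmosomal plaque protein plakophilin, read -2.60, -0.83 and -3.31 on the heart arrays and -3.20, -0.04 and 0.13 on the tail arrays. Heart 1 and 3 lay below tail 2 and 3, and the 4-array difference was 7.97-fold (lower in heart; -3.00 ± 0.28, SE; adjusted p 0.00535). Dsp, for the desmosomal linker desmoplakin, read -2.18 on tail 2 and -1.72 on tail 3 and was not well above background on heart 1 or heart 3. It was at least 6.86-fold higher in tail. Dsp passed the filter through the tail arrays alone, so its call adds nothing to the bound. Ank3, for the membrane scaffold ankyrin-G, differed by -2.92 (adjusted p 0.00590), with signal on 1 of the 2 heart arrays. Ccn3, a matricellular protein that binds Gja1 protein, differed by -1.51 (adjusted p 0.00989), and Smurf2, a ubiquitin ligase gene, by -0.98 (0.0280).

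The 3 genes higher in heart were Cdh2, Jup and Rab20. Cdh2, for N-cadherin of adherens junctions, read 4.76, 1.99 and 4.46 on the heart arrays and 4.64, 2.97 and 3.14 on the tail arrays, and differed by 1.56 ± 0.18 (SE; adjusted p 0.00939) on the 4 arrays. Tail 1 again lay with heart 1 and heart 3. Jup, for plakoglobin, a plaque protein of desmosomes and adherens junctions, was not well above background on tail 2 or tail 3. It was at least 1.74-fold higher in heart. Jup passed the filter through the heart arrays alone, so its call adds nothing to the bound. Rab20, a small GTPase gene, differed by 1.53 (adjusted p 0.0122). Without the filter on dim probes, Pkp2 (adjusted p 0.0554) and Ank3 (0.0584) lost their calls. Leaving out either tail array ended the calls of Cav2, Ccn3, Smurf2, Cdh2, Jup and Rab20 (adjusted p 0.0526 to 0.248), and so did testing without the filter. The scaffold gene Tjp1 (-0.25; adjusted p 0.328) and the catenin gene Ctnnb1 (0.16; 0.585) did not pass the test.

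**Figure D3:**
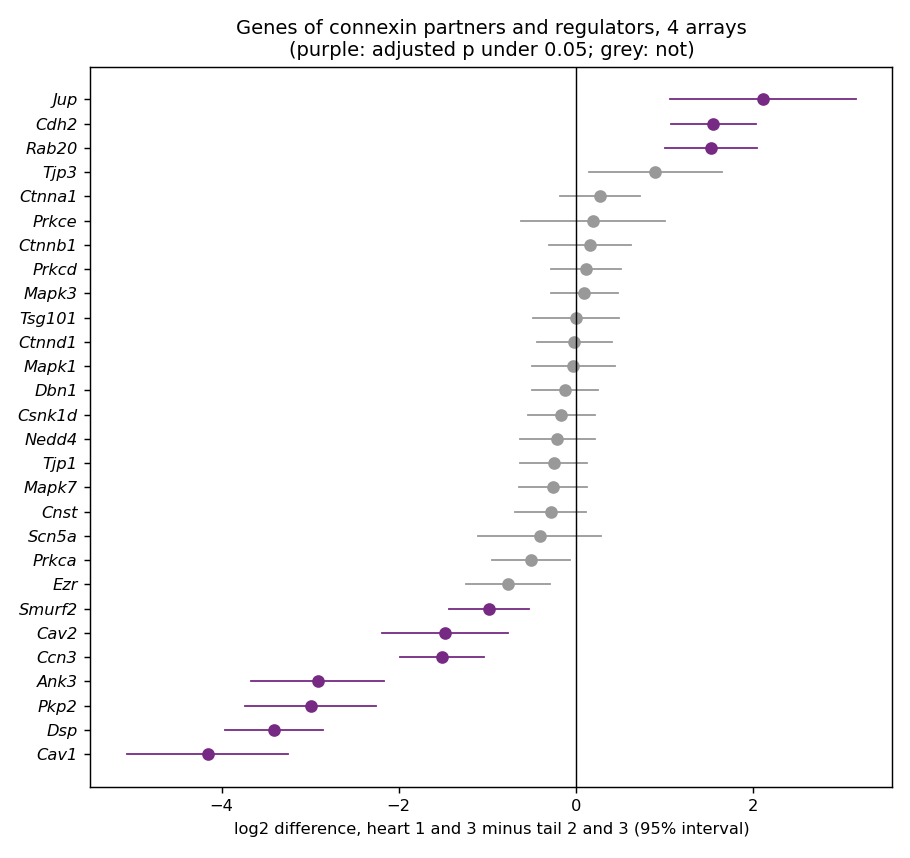
Log2 differences on the 4 arrays, heart minus tail, on the horizontal axis with 95% intervals for the 28 tested genes of connexin partners and regulators. Purple genes had an adjusted p under 0.05, from Cav1 at -4.16 to Jup at 2.12, and the 18 grey genes did not. The Dsp and Jup values are fitted against arrays without signal.

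Markers of other cell types moved with the same arrays. Over all features tested on the 4 arrays, 7.74% were higher and 6.53% lower in heart, and each count of called markers stands beside these shares. Some counted markers passed the filter only through the group where they were high, so the counts are descriptions and not support for a difference. In bulk cultures fewer cells of a type and less RNA per cell cannot be told apart. Of 17 endothelial markers 16 were tested on the 4 arrays, and 13 were higher in heart and 0 lower. The 13 include Cldn5, Robo4, Tie1, Emcn and Sox17, which had signal on neither tail 2 nor tail 3 and entered through the heart arrays alone. Among the endothelial genes, the tight junction gene Cldn5 was at least 8.99-fold, the guidance receptor gene Robo4 at least 16.3-fold and the adhesion gene Icam2 9.12-fold higher in heart. The receptor gene Tie1 was at least 1.72-fold higher, while Pecam1 differed by 0.22 (adjusted p 0.433) and Kdr by -0.43 (0.333). The dimmest Kdr probe gave 1.45 (adjusted p 0.0224), so the probes of Kdr disagreed. Without heart 3, Icam2 was no longer called (adjusted p 0.0565), and without the filter neither Icam2 (0.0960) nor Robo4 (0.0519) was. The summed linear level of the list, relative to the 75th percentile, was 43.5 to 54.2 on heart 1 and 3, 31.3 to 38.7 on tail 2 and 3, 45.6 on tail 1 and 15.9 on heart 2. None of the 17 was below background on all of the 5 arrays. The 13 markers higher in heart moved in the direction of Gja4, and their part in its difference was not tested.

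Of 12 smooth muscle markers 11 were tested, and 6 were lower in heart and 1 higher. Actg2 was 44.3-fold, the contractile regulator gene Cnn1 32.8-fold and the myosin kinase gene Mylk 16.0-fold lower in heart, and Myh11, with signal on 1 of the 2 heart arrays, differed by -3.49. The list summed to 526 to 571 on heart 1 and 3, 1108 to 1341 on tail 2 and 3, 441 on tail 1 and 285 on heart 2. Acta2 (mean log2 signal 9.08 on tail 2 and 3) and Tagln (8.80) made up most of the sums on those arrays. Synpo2 was 5.37-fold higher in heart (2.42, adjusted p 0.00633 in limma). Tagln (-0.66), Smtn (-0.59), Cald1 (-0.66) and Des (0.17) were not called. The 6 markers lower in heart moved with Gja1 and Cav1 on the 4 arrays, and their part in those differences was not tested. Of 11 cartilage and bone markers with a probe 10 were tested, and 6 were lower in heart and 1 higher. The higher one was Sox9 (3.63, adjusted p 0.00106 in limma). The list summed to 16.8 to 20.03 on heart 1 and 3, 109 to 120 on tail 2 and 3 and 20.2 on tail 1. Comp alone, at log2 6.47 on tail 2 and 6.67 on tail 3, made up most of the sums on those arrays.

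Since Gjb2 is expressed in epidermis, keratinocyte markers are given beside it. Of 18 such markers 8 were well above background on none of the 5 arrays, among them Krt17, Krt6a, Krt1, Dsg3 and Cdh1. Krt5, Krt10, Trp63, Sfn, Klf5 and Evpl had such signal on all 5, and none of these 6 was called. On the 4 arrays Klf5 differed by -1.62 (adjusted p 0.0526 in limma) and Sfn by -0.41. Krt5 differed by -0.06, Krt10 by -0.01, Trp63 by 0.12 and Evpl by 0.27. Of 7 tested, 0 were lower in heart and 1 was higher, Perp, at 1.07 (adjusted p 0.0441), a call lost when any 1 of the 4 arrays was left out (0.0624 to 0.288). The list summed to 6.68 to 7.30 on heart 1 and 3, 6.33 to 6.96 on tail 2 and 3, 6.55 on tail 1 and 11.1 on heart 2. Of 8 cardiomyocyte markers tested 4 were lower and 1 higher in heart, of 5 mesothelial markers 1 was lower and 2 were higher, of 9 leukocyte markers 0 were lower and 5 higher, and of 7 Schwann cell and neuron markers 1 was lower and 3 were higher. Of the labelled cell type, all 14 fibroblast genes were well above background on all 5 arrays, with sums of 2850 to 3586 on heart 1 and 3 and 2928 to 3187 on tail 2 and 3. The sum was 3096 on tail 1 and 635 on heart 2, which enters each value by label. Of these 14 genes 5 were higher and 2 lower in heart.

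**Figure D4:**
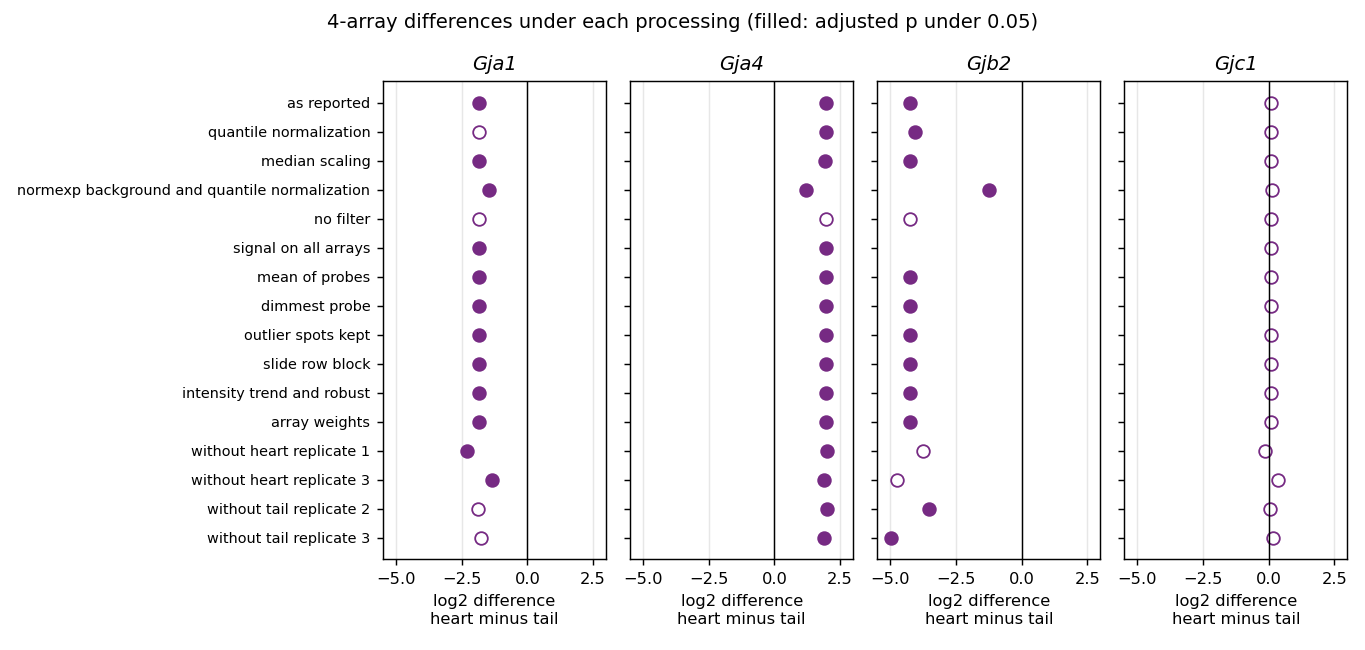
The 4-array log2 difference, heart minus tail, of the 4 tested connexins on the horizontal axis under each processing on the vertical axis (filled points, adjusted p under 0.05; an empty place means that the gene was not tested). Gja4 keeps to the right of 0 with the call lost in 1 setting. Gja1 and Gjb2 keep to the left, with the call lost in 4 settings for Gja1 and 3 for Gjb2. Gjc1 stays near 0. The test for a change beyond 2-fold is not drawn.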

How the data were processed

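RNA of 6 cultures was labelled with Cy3 and read on 1 slide of 1-colour Agilent arrays, per the labels' protocols. Per the file headers, the deposited intensity values came from Agilent Feature Extraction 11.0.1.1, which subtracted background and removed spatial trends; the deposited flags for background, saturation and outliers are 0 or 1 per spot. The authors' deposited table gives log2 and linear fold changes (ratio of heart to tail) for 433 probes, all at 2.00-fold or more, with normalization not given in the sources used here; it lists 0 of the 7 connexins, so no fold was taken from it.

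Spots flagged as outliers were left out, spots of a probe averaged, and log2 intensity taken relative to the 75th percentile of the array's non-control probes. Of 55681 probes, 27235 were named through RefSeq accessions and 27 through the deposited table. The other 28419 had no gene symbol and went by the systematic name in the array files. A probe was tested if at least 1 group had it well above background throughout, and a gene was represented by its kept probe with the highest mean. limma 3.58.1 in R 4.3.3 (lmFit and eBayes, two-sided, Benjamini-Hochberg over all features, threshold 0.05) compared heart with tail and was tested on simulated data; Python 3.11.15, pandas 2.3.3 and matplotlib 3.10.9 did the rest. A fold against a group below background is a bound: the bright group's mean against, per array, the higher of the lowest signal well above background and the probe's own value. The precision is limited by the number of arrays.

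The members, lists and tests were chosen with earlier results of these data known. Genes named are the 7 members and other connexins and pannexins tested on 4 arrays. Also named are up to 4 called genes of largest difference per list and 3 nearest genes per member. Cav2, Ccn3, Smurf2, Cdh2, Jup, Rab20, Tjp1, Ctnnb1, Pecam1, Kdr, Emcn and Sox17 were named after their values were seen. So were Acta2, Synpo2, Tagln, Smtn, Cald1, Des, the keratinocyte markers other than Perp and the undetected genes. By exception, the leukocyte, cardiomyocyte, mesothelial, nerve and fibroblast lists are given by counts, and the cartilage and bone list by counts, Comp and Sox9. Some genes are not reported here and were left out of the lists and the search for nearest genes. Alternatives were other scaling, background correction, filters, probe choice, outlier spots, blocks, variance models, array weights and leaving out each array.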

Additional observations from a re-analysis of the deposited data

How the results depend on the processing

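Over 6 arrays, 0 features and 0 connexins were called. Array weights, which rest on these same values, gave 2137 features and 2 connexins (Gja1 and Gja4). Leaving out 1 of the 6 arrays gave 0 to 239 features, the highest without heart 1. The only connexin called there was Gja5, which entered through the arrays where it was high, so it is not counted. On the 4 arrays, leaving out 1 array gave 1483 (without tail 3) to 4056 features (without heart 1) and 2 to 3 connexins, with 1809 features without tail 2; no filter on dim probes gave 692 features, of 37066 tested, and 0 connexins. In some of these settings the connexin count includes Gjb2 or Gja5, which passed the filter through the arrays where they were high. The counts are therefore descriptions and not support for a difference. Signs turned for differences not called in the fits reported. Gjc1 by label was 0.070 with array weights, and -0.86 to 0.10 when 1 array was left out, highest without heart 2. On the 4 arrays with 1 left out, Gjc1 ran from -0.14 to 0.35 and Gjb1 from -0.31 to 0.051, both turning without heart 1. Kdr was 0.51 as the mean of its probes and 1.45 on the dimmest, which was called. The cause of these shifts was not tested. Of all single-gene values, 438 kept direction and side of the threshold, 48 lost and 2 gained the call, and 6 turned. The median difference over all features by label was -0.35, and -1.33 with median scaling, so signs by label are relative to that shift; on the 4 arrays it was -0.07 to -0.04 under every scaling run.

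A fit with the replicate block over 6 arrays called 120 features and 0 connexins. Same-numbered arrays deviated together at 0.195, 0.259 and -0.330, and not every array correlated best with its own number, so the numbers were not taken to pair samples. The 4 arrays share the number 3 alone, so they had no such block. With 1 array left in a group, its spread is assumed to equal the other group's. Signal near background limits Gja5, Gjb2, Gjb5 and Gjb6.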
